A study of Mus musculus with 2 samples.

Results

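Membranous nephropathy is an antibody disease of the glomerulus, the filtering unit of the kidney, and its target antigens were found one by one in patients' immune deposits. The transcripts of 9 of these antigens were followed here: Pla2r1, Thsd7a, Nell1, Htra1, Pcdh7, Ext1, Ext2, Ncam1 and Tgfbr3. They were read by 15 of the 39429 gene probes on each array, and the genes make up 9 of 20659 named genes. All non-control probes named for these genes through their RefSeq accession were taken, a rule that uses no measured value, though the genes were picked with earlier results of these data known. A single probe served 6 of the genes, and Thsd7a, Pcdh7 and Ncam1 had 3 probes each. All 15 probes were well above background on both arrays, so no member was lost to the filter on dim probes that left 18239 genes in all.

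The RNA came from glomeruli of male mice aged 8 months given pristane, an oil that provokes lupus-like autoimmunity, as 1 dose of 0.5 ml into the peritoneum 4 months earlier. The groups were wild type (WT) mice and mice lacking Sirpa in podocytes, the epithelial cells of the filter. Sirpa encodes SIRPα, an inhibitory receptor for CD47. Each group had 1 Agilent one-colour array, both carried RNA of pristane-treated mice, and uninjected mice were not analysed here. The sources used here do not give the strain, the driver of the deletion or the number of animals behind each array, and the series text speaks of podocytes where the sample labels speak of glomeruli.

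In membranous nephropathy, antibodies meet their antigen beneath the podocyte foot processes, where immune complexes collect and complement is activated. In patients, PLA2R1 and THSD7A are proteins of the podocyte itself and are the classic targets of the primary disease. Whether mouse podocytes carry these proteins was not examined here. NELL1, HTRA1 and PCDH7 are further targets found mostly outside lupus. The EXT1 and EXT2 pair, NCAM1 and TGFBR3 were found mainly in membranous lupus nephritis, the lupus class that resembles the primary disease. Antigen status rests on deposited protein, and an array reads RNA only.

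With 1 array per group no test between the groups was possible and no p-value is given. Each difference below is the log2 signal of the array labelled Sirpa-/- minus that of the WT array, after each array was scaled to the 75th percentile of its gene probes (1157 for WT and 1109 for the other). Signals are the scanner's processed fluorescence before that scaling, with the WT value first. Sirpa itself goes against the label, reading 11620 for WT and 17320 for the array labelled Sirpa-/-, a difference of 0.64. Where its probe lies relative to the deleted part was not determined here, and a podocyte deletion leaves the gene in other cells, so this value does not check the deletion. An exchange of the labels was not tested. In whole glomeruli, fewer cells of a type and less RNA per cell cannot be told apart.

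None of the 9 antigen genes differed by 1.5-fold between the arrays on its brightest probe. The median of the 9 was -0.03 and their range ran from -0.34 for Thsd7a to 0.54 for Tgfbr3, with 4 genes above 0 and 5 below. Over all 18239 measured genes the median was 0.0, the middle 90% ran from -0.6 to 0.54, and 9.61% differed by at least 1.5-fold. With normexp background correction the median was 0.13 for the antigens and 0.074 for all genes, which puts the antigens at 0.05 relative to all genes. At that share fewer than 1 of 9 genes would pass, so a count of 0 is not a result about the antigens. At 2-fold, 3.23% of all genes passed and again 0 of the 9.

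**Figure D1:**
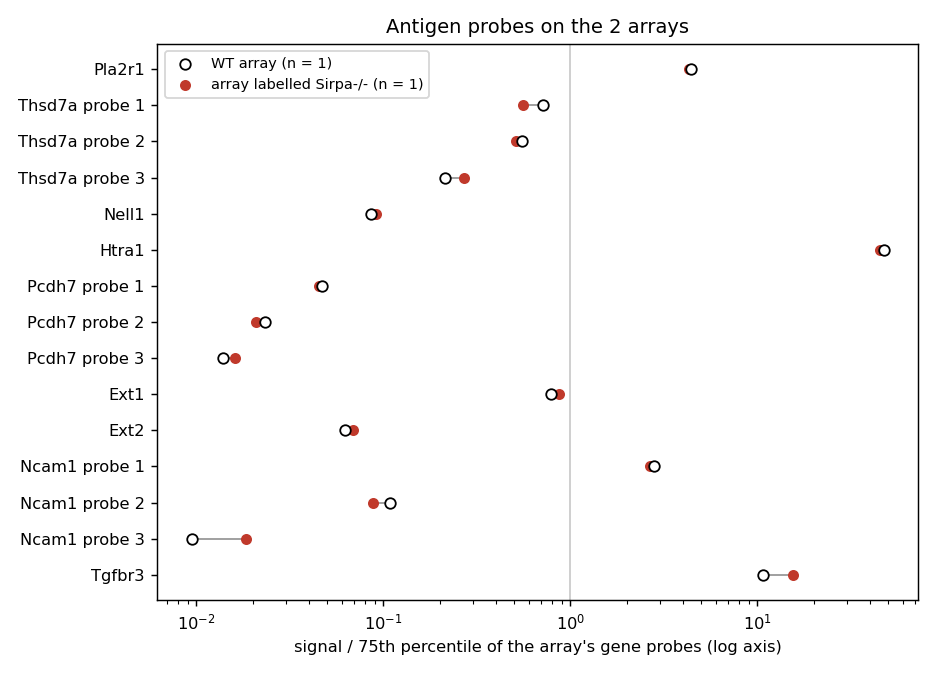
Scaled signal (processed signal divided by the array's 75th percentile, log axis) of the 15 antigen probes on the WT array (open circles) and on the array labelled Sirpa-/- (filled circles), 1 array per group. The circles nearly coincide for Pla2r1 and Htra1 and are farthest apart for the dimmest Ncam1 probe and for Tgfbr3. Signals of different probes cannot be compared with each other.

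Pla2r1, the receptor for secreted phospholipases A2 and the most frequent target of primary membranous nephropathy, was nearly equal on both arrays. Its probe, A_55_P1971903, gave 5082 (WT) against 4776 (labelled Sirpa-/-). The difference after scaling was -0.03 with a software error of 0.2. That error combines the scanner program's own estimates for both arrays, each about 10% of the signal for most of these probes. It says nothing about the spread between mice. A second yardstick is the spread of probes spotted 10 times: the SD of their spot-by-spot differences had a median of 0.049 for signals over 1000, 0.073 between 50 and 1000, and 0.341 below 50. The Pla2r1 difference lay inside both.

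Thsd7a, a thrombospondin-repeat protein of the podocyte foot process, gave different answers on its 3 probes. The brightest, A_55_P2161219, read 823.8 (WT) against 622.1 (labelled Sirpa-/-), a difference of -0.34. A_55_P1960451 read 636.4 and 564.8, a difference of -0.11. A_55_P2161214 read 247.1 and 298.2, a difference of 0.33. The first and the third each lay beyond the software error of 0.2, in opposite directions, so no direction can be given for the gene. All 3 probes carry the same transcript accession, and their mean difference was -0.04. A range of 0.68 between probes is wide but not rare: among 628 genes with 3 measured probes the median range was 0.31, and 16.7% had one at least as wide.

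Nell1, a secreted protein first studied in bone and a target in membranous nephropathy that can accompany cancer, read 99.61 (WT) against 101.8 on probe A_55_P1967500. The difference was 0.09 with a software error of 0.21. Htra1, a secreted serine protease, read 54910 (WT) against 50440 on probe A_51_P225224. Its difference of -0.06 lay within the software error of 0.2. Among 417 gene probes of like brightness (within 0.5 log2 units of the same mean signal), 53.5% differed by at least as much. Both differences were near the median spot SD of their brightness and inside the software error.

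Pcdh7, a protocadherin that joins cells to each other, was dim on all its probes. A_51_P260740 read 54.57 (WT) against 50.02. Its difference was -0.06 but 0.19 with normexp, so its sign depends on that step. A_55_P2035167 read 26.95 and 23.12, a difference of -0.16. A_52_P130912 read 15.97 and 17.9, a difference of 0.23. Each of the 3 values lay within its own software error (0.21, 0.23 and 0.27), and a difference in Pcdh7 was not detectable at these signals.

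Ext1 and Ext2 encode the subunits of the complex that builds heparan sulfate chains, and their proteins are found together in deposits of lupus membranous disease. Ext1 read 911 (WT) against 962.3 on probe A_51_P416689. Ext2 read 72.23 (WT) against 76.21 on probe A_55_P2125185. Both differences came to 0.14, within their software errors of 0.2 and 0.21 but beyond the median spot SD of 0.07. Some repeated probes of this brightness spread far more, with a 95th percentile of the spot SD at 0.397. Ext1 stayed between 0.12 and 0.17 under each processing tried, and Ext2 between 0.13 and 0.19 under each but the stricter filter on dim probes, which removed it. Differences of this size were common: 50.1% of probes as bright as that of Ext1 and 56.1% of those as bright as that of Ext2 differed by as much or more.

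Ncam1, the neural cell adhesion molecule and an antigen of lupus membranous disease, also had probes that disagreed. The brightest, A_51_P380309, read 3222 (WT) against 2964 (labelled Sirpa-/-), a difference of -0.06. A_55_P2050602 read 124.9 and 97.66, a difference of -0.29 with a software error of 0.21. The dimmest, A_55_P2028942, read 10.97 and 20.42, a difference of 0.96. This was the only antigen probe of the 15 past 1.5-fold, against 9.97% of all gene probes and 17.3% of probes with a mean signal under 50. Its WT signal stood little above 6.722, the lowest of any probe well above background on that array, and normexp gave 0.42. The 2 dimmer probes share a transcript accession that the brightest does not carry. The range over the 3 probes was 1.25, and 4.5% of the 628 genes with 3 measured probes had one at least as wide. The difference of the bright probe lay within its software error of 0.2, and the gene as a whole has no single direction.

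Tgfbr3, also called betaglycan, is a membrane proteoglycan that presents TGF-β to its signalling receptors and a target found in membranous lupus nephritis. It gave the highest value of the 9 genes. Its only probe, A_65_P16059, read 12420 (WT) against 17260 (labelled Sirpa-/-), a difference of 0.54 or 1.45-fold. This lay beyond 2 software errors (0.2 each). It was also far wider than the spot SD at this brightness (median 0.05, 95th percentile 0.078). Among 1285 probes of like brightness the middle 90% ran from -0.33 to 0.28, and 3.6% differed by as much or more. The value stayed between 0.45 and 0.57 under each processing tried, below 1.5-fold (0.58 on the log2 scale) each time. No further probe was there to check it, and a technical yardstick does not replace replicate mice.

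**Figure D2:**
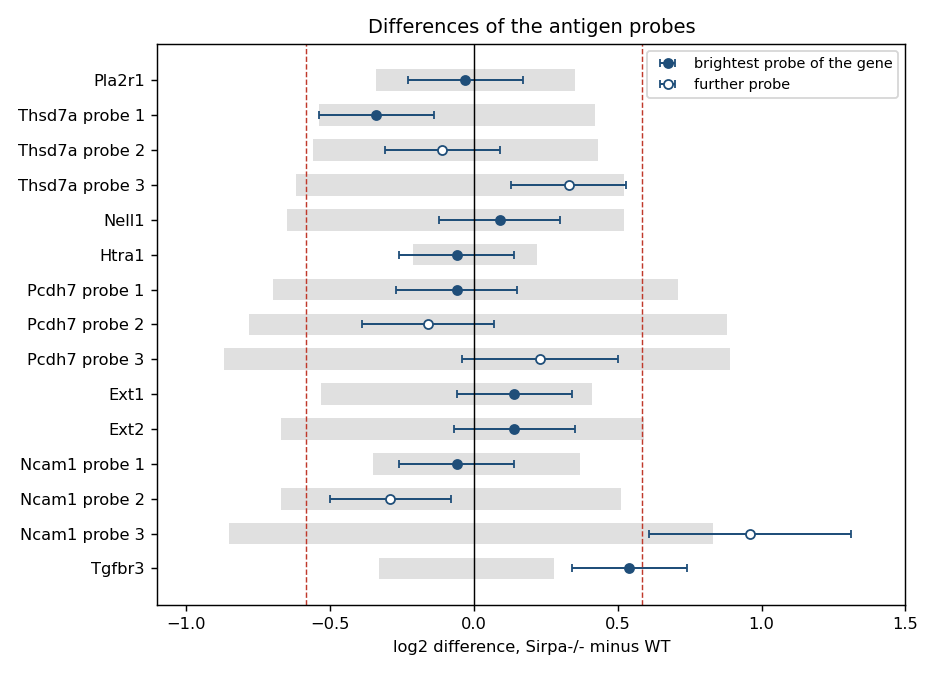
Log2 difference (array labelled Sirpa-/- minus WT array) of the 15 antigen probes, with bars of 1 software error. Grey bands hold the middle 90% of gene probes of like brightness and dashed lines mark 1.5-fold. Tgfbr3 (0.54) and the dimmest Ncam1 probe (0.96) lie outside their bands, and the 3 Thsd7a probes spread from -0.34 to 0.33.

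Over the 15 probes, 7 lay above 0 and 8 below. Within 1 software error of 0 were 10 probes, and 2 lay beyond 2 software errors, the Tgfbr3 probe and the dimmest Ncam1 probe. The same 2 probes were the ones outside the middle 90% of probes of like brightness. The authors' deposited table of log2 values had differences of -0.02 for Pla2r1, -0.35 for the brightest Thsd7a probe and 0.57 for Tgfbr3. The plot of the 9 genes under each processing shows Tgfbr3 as the highest of them at every setting.

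**Figure D3:**
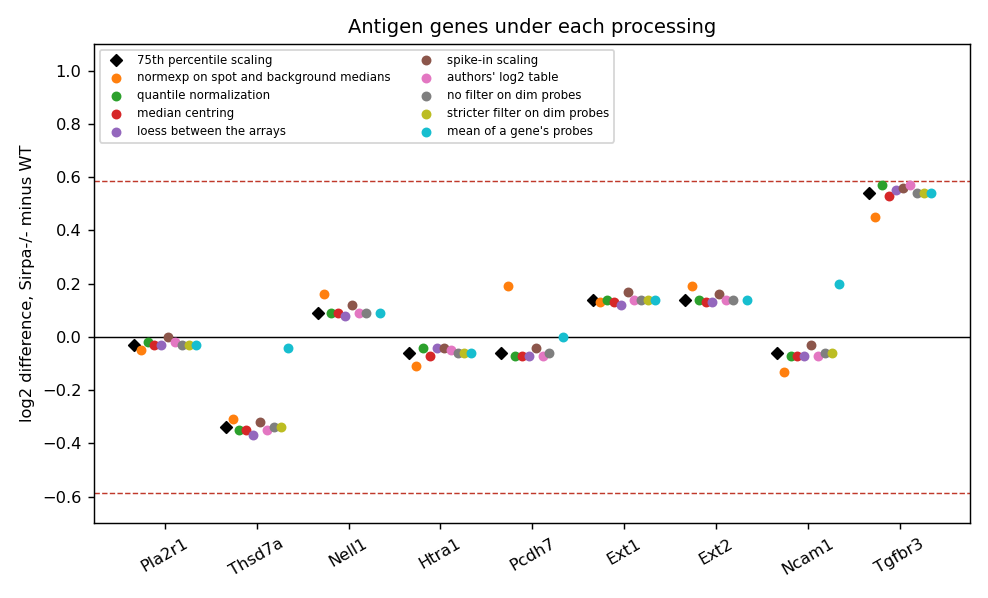
Log2 difference of each antigen gene (array labelled Sirpa-/- minus WT array) under 75th percentile scaling (black diamonds) and 9 alternatives (coloured circles), with dashed lines at 1.5-fold. Tgfbr3 stays between 0.45 and 0.57, Thsd7a moves from -0.34 to -0.04 with the mean of its probes, and Pcdh7 and Ncam1 cross 0.

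Other antigens of membranous nephropathy were set beside these 9. Of 13 such genes, all measured, 1 was higher and 1 lower by 1.5-fold or more on the array labelled Sirpa-/-, against 4.34% and 5.27% of all genes. Their median was -0.02. The higher one was Pcsk6, a proprotein convertase that has been reported as an antigen in patients taking anti-inflammatory drugs, with 2044 (WT) against 20340, a 10.39-fold difference on its only probe. The lower one, Ntng1 (netrin G1), was dim, at 19.16 and 8.467, a difference of -1.12 that turned to 0.12 with normexp. Sema3b, a semaphorin and an antigen of childhood disease, gave 0.09, and the giant cadherin Fat1, a target after stem cell transplantation, gave -0.09. Mme (neprilysin), the target in newborns of mothers who lack it, gave 0.29 and 0.19 on its other probe. Mrc1, a mannose receptor built like Pla2r1 and also carried by macrophages, gave 0.36. Of the intracellular enzymes reported as antigens, 3 were measured and none reached 1.5-fold, too few to read against the 9.61% of all genes. Sod2 gave 0.0, and Akr1b3 and Eno1 each gave -0.11.

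Around Ext1 and Ext2, 25 other genes of heparan sulfate synthesis and remodelling were measured. Their median was 0.07, 1 was higher by 1.5-fold or more and 0 were lower by as much, a count too small to read against the 9.61% of all genes. That gene was Ndst3, a sulfotransferase, at dim signals of 44.81 and 81.68, with a difference of 0.93 that was 0.56, under 1.5-fold, with normexp. Extl3, which helps start the chain, gave -0.03, and Ndst1, the main N-sulfating enzyme, gave -0.29 on its brightest probe, -0.06 and 0.1 on the others. Sulf1, a sulfatase that trims the finished chain, gave 0.39 and 0.54 on its probes, and the sulfotransferase Hs6st2 gave -0.51, both named after their values were seen. Among the proteins that carry the chains, 1 of 12 was at least 1.5-fold higher and 1 lower, with a median of -0.05. These counts are too small to read against the 4.34% and 5.27% of all genes. Gpc5 gave 1.69 on one probe, which read 71.84 (WT) against 221.8, and -0.04 on its other probe, so it has no settled direction. Gpc3 gave -0.66. Of the basement membrane proteoglycans, perlecan (Hspg2) gave -0.48 and -0.16 on its other probe, and agrin (Agrn) gave -0.02 and 0.13. Col18a1 (type XVIII collagen), named after its values were seen, gave -0.55 and -0.48, the former from 44080 (WT) against 28900.

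Around Tgfbr3, none of the 20 measured TGF-β ligands, receptors, binding proteins and SMADs was 1.5-fold higher and 2 were at least 1.5-fold lower on the array labelled Sirpa-/-, with a median of -0.07. These 2 of 20 are close to the 9.61% of all genes and say nothing about the list. Ltbp4, which stores TGF-β in the matrix, read 11550 (WT) against 4802. Its difference was -1.2, and -1.39 on its other probe. The ligand Tgfb2 gave -0.76, and -1.0 on its other probe. Both genes thus kept their direction on a further probe. The signalling receptors lay near 0, at 0.07 for Tgfbr1 and -0.08 for Tgfbr2, and endoglin (Eng), the structural relative of Tgfbr3, gave -0.16.

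Around Pla2r1, 8 of 9 genes of secreted phospholipases A2, a family with members that bind it, were measured. Which of the 9 bind it was not examined here. On their brightest probes all but Pla2g12b lay between -0.15 and 0.25, while a further probe gave 0.54 for Pla2g2d and -0.5 for Pla2g5. Pla2g12b, at dim signals of 14.32 (WT) against 58.98, gave 2.1, and 0.8 with normexp. It was the only one of the 8 past 1.5-fold, a count too small to read against the 9.61% of all genes.

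Markers of podocytes, glomerular endothelium and mesangium were measured on both arrays. Which cells carry the antigen transcripts was not examined here. Nephrin (Nphs1), a podocyte marker, read 34990 and 51880 (0.63). The 18 measured podocyte markers had a median of 0.04, with 1 at least 1.5-fold higher, Nphs1, and 1 lower, Kirrel2 (-1.06). Over all genes 4.34% were higher and 5.27% lower by as much, so these counts say nothing about the list. Podxl gave 0.22, Synpo -0.07 and Wt1 0.28. The 10 glomerular endothelial markers had a median of -0.05, with Pecam1 at 0.08 and Ehd3 at -0.07, and 2 at least 1.5-fold higher (Gpihbp1 at 0.65, Plvap at 0.64). The other Plvap probe gave 0.42. With the mean of a gene's probes 1 of the 10 was higher by as much, and these counts are too small to read. Mesangial and smooth muscle markers had a median of 0.01 over 9, with 5 above 0 and 4 below. Pdgfrb gave -0.22 and Itga8 -0.42. At 1.5-fold, 1 was higher, Myh11, and 0 were lower. Myh11 gave 1.13 at dim signals of 17.81 (WT) against 37.44. With normexp 0 of these markers were higher by as much, and the count is too small to read. The median of the 9 antigens, -0.03, lay close to those of all 3 glomerular lists, but also to the 0.0 of all genes. With normexp it was 0.13, against 0.09 for podocyte, -0.05 for endothelial and 0.13 for mesangial and smooth muscle markers.

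Markers of some other cells lay farther from 0. Proximal tubule markers had a median of -0.49 with 9 of 9 below 0 (Lrp2 at -0.26). With the mean of a gene's probes 8 of these 9 lay below 0 and 1 above. The 10 markers of later nephron segments had a median of 0.91 with 6 at least 1.5-fold higher. These later-segment markers ran from -0.15 to 2.53 for Slc12a3. Their median was 0.54 with normexp and 0.19 over the 5 genes left by the stricter filter on dim probes. The 8 B cell markers had a median of 1.65 with 7 at least 1.5-fold higher (Cd22 at 2.32), and 4 of 5 erythroid genes were higher. Over all genes 4.34% were at least 1.5-fold higher. The other Pax5 probe gave 0.07, and 6 of the 8 B cell markers passed with normexp and with the mean of a gene's probes. The 6 macrophage and dendritic cell markers went both ways, with Cd209a at 1.43 and Clec10a at 1.07 but Adgre1 at -0.91 and Cx3cr1 at -0.71, and a median of -0.4. The higher ones were dim, at 29.88 and 77.25 for Cd209a and 47.92 and 96.13 for Clec10a. Of the 4 genes left by the stricter filter, 0 lay above 0, with a median of -0.6. The other probe gave -0.73 for Adgre1 and -0.09 for Cx3cr1. Medians were 0.3 for 8 T and NK cell markers and 0.02 for 7 nerve and Schwann cell markers. The 6 parietal epithelial markers had a median of 0.11, and -0.42 over the 3 left by the stricter filter. The part of these cells in the values of Tgfbr3, Pcsk6 and the other named genes was not tested.

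**Figure D4:**
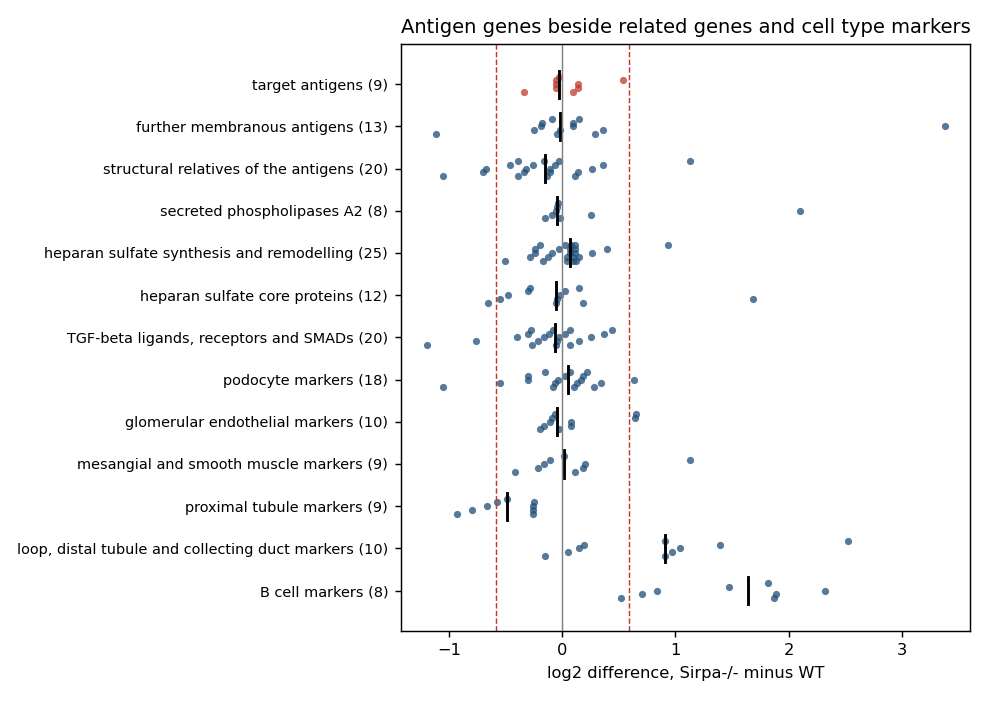
Log2 difference (array labelled Sirpa-/- minus WT array) of the 9 antigen genes (red) and of related genes and cell type markers (blue), 1 point per gene from its brightest probe, with the number of genes in brackets, black bars at the medians and dashed lines at 1.5-fold. The antigens lie around 0, as do the podocyte, endothelial and mesangial markers, and the median of all genes (not drawn) was 0.0 too. Pcsk6 (3.38) is far to the right among the further antigens, and B cell markers have a median of 1.65.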

How the data were processed

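Total RNA of glomeruli was hybridised to 2 one-colour arrays, 1 for each group, on the same slide. The deposited files give spot intensity as the authors' scanner program wrote it, made with Agilent Feature Extraction 11.0.1.1 per the file headers, while the submitters' processing notes name version 9.1. The processed intensity is background-subtracted and not normalized between arrays. Other values are the program's flags for outlier, saturated and above-background spots, per the file headers. A deposited table has the authors' log2 values, whose columns share a median of 6.5. Its normalization is not stated in the sources used here, it was not centred per gene, and its differences correlated with those of the scanner files at r = 0.999 across 32949 probes, so it served only as an alternative.

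Marked spots (123 and 98 gene spots, none of an antigen probe) were left out, log2 was averaged over a probe's spots, and the 75th percentile was subtracted. Kept were probes with over 50% of spots well above background on each of the 2 arrays, as 85.3% and 86.7% of probes were on the single arrays. No spot was saturated (0 on each array). Probes were named through RefSeq accessions in a GRCm38.p6 gene table, which matched 27234 probes. The arrays were designed on an older build, so no coordinates are given. The brightest probe stood for a gene. Calculations used Python 3.11.15, numpy 2.4.6, pandas 2.3.3 and limma 3.58.1, and were tested on simulated arrays. The normexp alternative (offset 50) used spot medians in place of the planned means.

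Named were every antigen probe, Sirpa, up to 5 members past 1.5-fold of the pathway and glomerular lists, and fixed reference genes, of which 1 is not reported here. For lists of other cells fewer examples are given. The antigens and lists were chosen with earlier results of these data known. Probe sequences were not used here.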

Additional observations from a re-analysis of the deposited data

How the results depend on the processing

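With 9 other processings and a 2-fold threshold, 96 of 107 recomputed values stayed within the technical spot spread of the value reported (counts within 1.5 times), and no antigen gene reached 1.5-fold in any. Part of that tally was fixed in advance. Both changed filters use the same brightest probe of each antigen they keep, and the mean of probes changes nothing for the 6 genes with 1 probe. A count of 0 at 1.5-fold is also 0 at 2-fold. The ranges given for Ext1, Ext2 and Tgfbr3 include such unchanged values. Normexp background correction moved Pcdh7 to 0.19, Ncam1 to -0.13, Tgfbr3 to 0.45 and the median of the 9 antigens to 0.13. The mean of a gene's probes moved Thsd7a to -0.04, Ncam1 to 0.2 and that median to 0.09. The cause was not tested for normexp, while the mean of probes includes the dimmer, disagreeing ones by construction. The count of all genes past 1.5-fold, 1753 as reported, was 763 with normexp, 2926 with no filter on dim probes, 684 with the stricter filter, which tested 12249 genes and kept 6 of the 9 antigens, and 589 at 2-fold. Genes higher on the array labelled Sirpa-/- made up 45.1% of those past 1.5-fold, and 55.6% with normexp. No paired analysis was possible because each group had 1 array. Dim signals limit Pcdh7, Ext2, Nell1 and the dimmest Ncam1 probe most, and spot repeats cover technical error only.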

Other observations

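Of 26 structural relatives of the antigens, 20 were measured, and 15 of these lay below 0 on the array labelled Sirpa-/-, with a median of -0.15, where 9078 of 18239 genes in all lay below 0. With normexp, 9 of the 20 lay below the all-gene median of that setting (0.074) and the list's median was 0.0 relative to it, so the shift depends on the background correction. At 1.5-fold, 3 were lower and 1 was higher, against 5.27% and 4.34% of all genes, and with normexp 1 was lower and 0 were higher. Among the relatives of Pcdh7, Pcdh17 read 1305 for WT against 598.4, a difference of -1.06 that was -0.91 with normexp. Pcdh18 gave -0.34 and Pcdh1 -0.32, and both kept their direction under each processing. Pcdh19 gave -0.46 (-0.18 with normexp) and Pcdh10 -0.39 (0.08 with normexp), while Pcdh8 gave 1.13 at dim signals of 28.68 and 60.32 (0.57 with normexp). Thus 5 of 6 were below 0, and 4 of 6 with normexp. Pcdh1, Pcdh10, Pcdh18 and Pcdh19 were picked out after their values were seen. A further relative, Pcdh9, was well above background only on the array labelled Sirpa-/-, on 2 of its 3 probes. These read 6.416 (WT) against 22.07 and 4.183 (WT) against 15.12. The background limit differs between probes (Krt8 at 10.74 on the WT array was not well above it), so no fold is given.

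Of the relatives of Pla2r1, Mrc2, a collagen receptor, gave -0.7 on its brightest probe (1917 for WT against 1132) but 0.24 on a dim one, and its direction is not settled. Of the immunoglobulin-type adhesion molecules related to Ncam1, Chl1 gave -0.68 at dim signals of 13.91 and 8.318, and 0.17 with normexp. The glypican Gpc6 was well above background only on the array labelled Sirpa-/-, at 5.367 (WT) against 10.89, and no fold is given for it either.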
